A study of Bos taurus with 6 samples.

Results

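The genes described here are SPI1, RUNX1 and LMO2, which encode transcription factors or cofactors of blood formation, and CSF1R, TYROBP, SIGLEC1, PTPRC, EVI2B, LCP1 and CD68, which are typical of leukocytes. They were chosen by name, because earlier results of the same data had shown differences among them, and were matched by symbol and by Entrez identifier. All 10 were found among the 19163 genes of the count table. Since the choice used the contrast of the 2 groups, the values of the 10 genes are given as a description. The calls of the fit across all genes are counted for them, also under other settings, and nothing is read from those counts.

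RNA-seq was done on F7 cells, an embryonic stem cell line from in vitro fertilized Holstein Friesian embryos. The cells grew on mouse embryonic fibroblast (MEF) feeders from C57 mice, which were either treated with mitomycin C (MC-F7, libraries labelled 1M) or fixed with methanol (MT-F7), with 3 libraries in each group. Mitomycin C stops division but leaves feeder cells alive, while methanol kills and fixes them. Both groups shared the line, the CTFR medium with FGF and the Wnt inhibitor IWR1, and 15 passages on their feeder. Before RNA extraction, dissociated cells stood on gelatin for a short time and the floating cells were collected, to leave attached feeders behind, but how much feeder RNA remained in each group was not measured here. By the study's methods, medium was changed daily on mitomycin C-treated feeders and every other day on methanol-fixed feeders. F7 is a single line, and the sources used here do not say if the 3 replicates were grown as separate cultures, so p-values measure only the spread between these libraries, which may be technical.

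SPI1 encodes PU.1, an ETS transcription factor that directs myeloid and B cell development in the bone marrow. RUNX1 and LMO2 act earlier, when blood stem cells arise from the endothelium, and LMO2 has no DNA binding of its own but bridges the factors TAL1 and LDB1. In leukocytes PU.1 switches on surface receptors such as CSF1R, and genes such as PTPRC, the phosphatase CD45, mark nearly every white blood cell.

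The libraries held 21958386 to 24933430 counts, and the 10 genes together took 220 to 254 of them in MC-F7 and 336 to 359 in MT-F7. A count of 3, taken as the smallest detected amount, was equal to 0.116 to 0.140 counts per 1000000 (CPM, on TMM-scaled library sizes as all CPM values here). Mitochondrial genome genes took 16.3% to 28.3% of the counts in MC-F7 and 18.0% to 27.9% in MT-F7. Among the defining markers of the labelled cell type, POU5F1 was at 1195 ± 329 CPM in MC-F7 and 522 ± 35.5 CPM in MT-F7 (SD, n = 3), and NANOG was at 43.5 ± 9.03 and 10.7 ± 1.23 CPM. SOX2 was not analysed here. In bulk RNA, fewer cells with a transcript and less of it per cell cannot be told apart.

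SPI1 was counted 46, 45 and 24 times in the MC-F7 libraries against 0, 0 and 2 times in the MT-F7 libraries. All 3 MC-F7 libraries were above all 3 MT-F7 libraries. Its level was 1.67 ± 0.485 CPM in MC-F7 and 0.0283 ± 0.0490 CPM in MT-F7 (SD, n = 3). The summed counts, 115 against 2, gave a level 62.9 times higher in MC-F7, with a 95% counting interval of 17.0 to 526. Such intervals are exact binomial intervals that cover counting error only, and the fitted log2 fold change of SPI1 was -5.71 (SE 0.77). Without MT-F7 replicate 3, SPI1 had no count left in MT-F7 and the fitted value was -8.33, a number set by the small count the fit adds.

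RUNX1, the DNA-binding core factor of definitive blood formation, was counted 19, 26 and 6 times in MC-F7 against 9, 2 and 6 times in MT-F7. The groups overlapped, since MC-F7 replicate 3 was as low as the MT-F7 libraries. The mean level was 0.733 ± 0.409 CPM in MC-F7 and 0.230 ± 0.142 CPM in MT-F7 (SD, n = 3). The ratio of the sums was 3.28 in favour of MC-F7, with a counting interval of 1.86 to 6.06. RUNX1 did not pass the filter on low counts and was not fitted.

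LMO2 went the other way. It was counted 58, 55 and 51 times in MC-F7 against 221, 240 and 188 times in MT-F7, and the lowest MT-F7 library was far above the highest MC-F7 library. The level was 2.41 ± 0.144 CPM in MC-F7 and 8.68 ± 0.652 CPM in MT-F7 (SD, n = 3). The log2 fold change was 1.85 (SE 0.22), and it stayed between 1.80 and 1.90 when each library was left out in turn. Thus SPI1 and LMO2 differed between the groups in opposite directions, and the 3 factors did not share a direction.

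**Figure D1:**
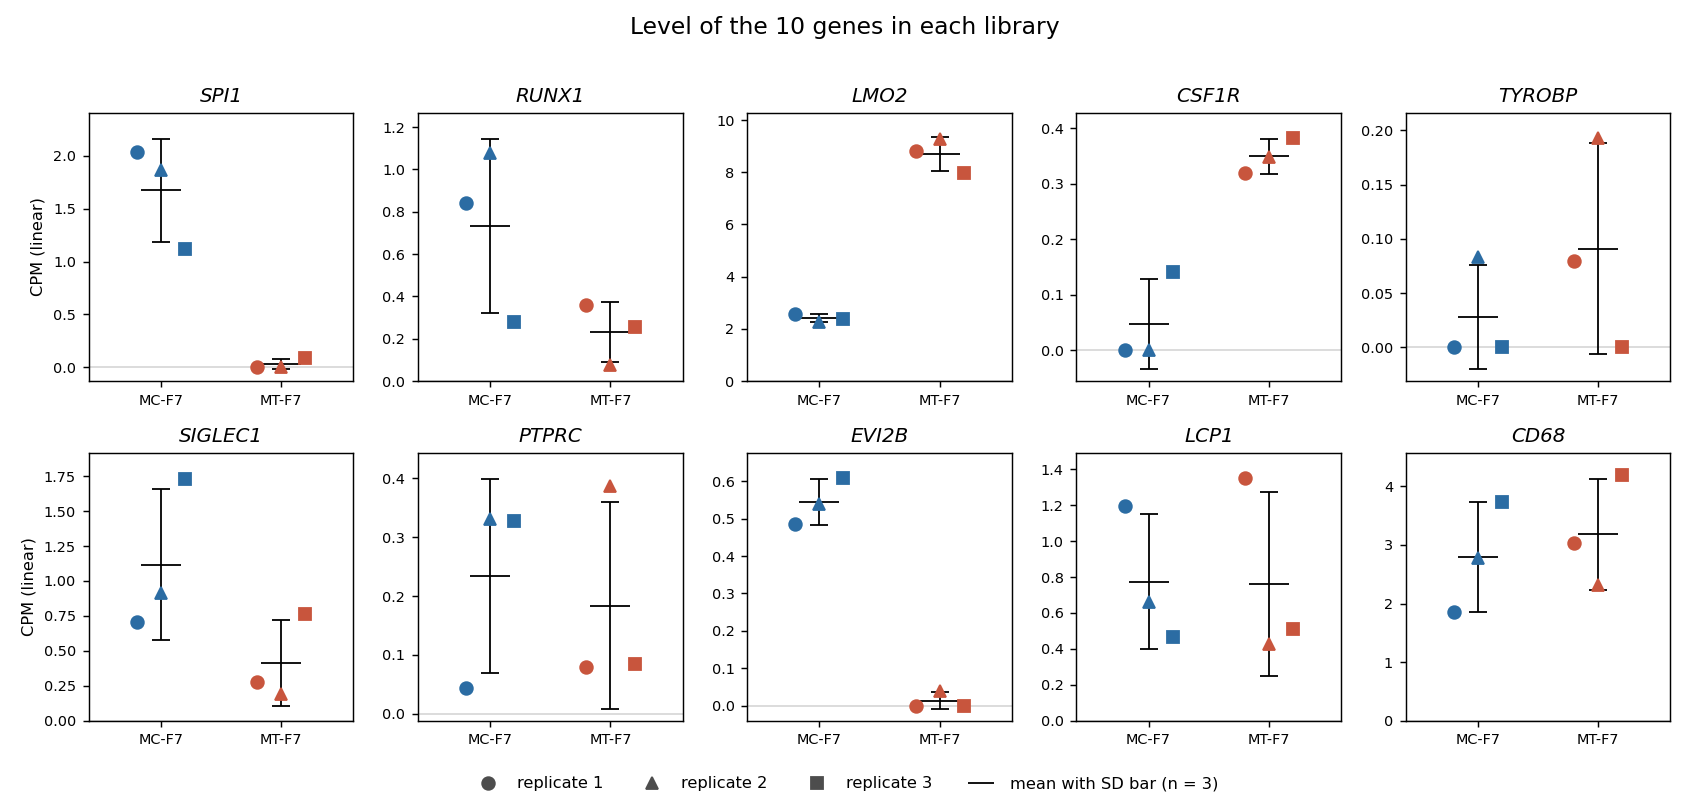
Each panel plots 1 of the 10 genes, with the CPM of each library on a linear vertical axis and the 2 groups side by side, blue for MC-F7 and red for MT-F7. Symbols stand for the replicates and black bars for the mean and SD (n = 3). SPI1 and EVI2B lie near 0 in MT-F7, LMO2 and CSF1R lie higher in MT-F7, and the groups overlap in the other 6 panels.

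Among the receptors, CSF1R, the tyrosine kinase receptor through which CSF1 and IL34 maintain macrophages, was counted 0, 0 and 3 times in MC-F7 against 8, 9 and 9 times in MT-F7. The groups did not overlap, but the MC-F7 libraries were at or under the smallest detected amount. The sums of 3 and 26 counts gave a ratio of 7.92 in favour of MT-F7, with a counting interval of 2.43 to 40.9. TYROBP, the adaptor DAP12 that passes on signals of myeloid receptors, had 0, 2 and 0 counts in MC-F7 against 2, 5 and 0 in MT-F7, too few to show a difference. SIGLEC1, the sialic acid receptor of tissue macrophages, had 16, 22 and 37 counts in MC-F7 against 7, 5 and 18 in MT-F7. Its groups overlapped, and its level was 1.12 ± 0.541 CPM in MC-F7 and 0.412 ± 0.308 CPM in MT-F7 (SD, n = 3), with a log2 fold change of -1.44 (SE 0.57). That value ranged from -2.22 to -0.99 when each library was left out in turn.

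PTPRC had 1, 8 and 7 counts in MC-F7 against 2, 10 and 2 counts in MT-F7. Both groups were near the detection limit and overlapped, and MT-F7 over MC-F7 gave a ratio of 0.800 with a counting interval of 0.361 to 1.75. A level 2 times lower in MT-F7 lies within that interval. EVI2B, a membrane glycoprotein of blood cells, had 11, 13 and 13 counts in MC-F7 against 0, 1 and 0 in MT-F7. The level was 0.544 ± 0.0608 CPM in MC-F7 and 0.0129 ± 0.0223 CPM in MT-F7 (SD, n = 3), and the groups did not overlap. The sums of 37 and 1 counts gave a ratio of 40.5 in favour of MC-F7, with a counting interval of 6.83 to 1642. EVI2B overlaps NF1 in the RefSeq bovine annotation, and whether counting used the strand is not given in the sources used here, so reads of the 2 genes may not be separable. NF1 itself had 1, 16 and 13 counts in MC-F7 against 6, 22 and 9 in MT-F7.

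The other 2 leukocyte-type genes did not differ beyond the spread of their libraries. LCP1, the actin-bundling protein L-plastin, had 27, 16 and 10 counts in MC-F7 against 34, 11 and 12 in MT-F7, a ratio of 0.983 with a counting interval of 0.664 to 1.46. CD68, a lysosomal glycoprotein that is abundant in macrophages but not restricted to them, had 42, 67 and 80 counts in MC-F7 against 76, 60 and 99 in MT-F7. The level of CD68 was 2.79 ± 0.941 CPM in MC-F7 and 3.18 ± 0.952 CPM in MT-F7 (SD, n = 3), and the counting interval of its ratio was 0.934 to 1.38. For both genes the log2 fold change took either sign when libraries were left out in turn, from -0.73 to 0.42 for LCP1 and from -0.07 to 0.44 for CD68.

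**Figure D2:**
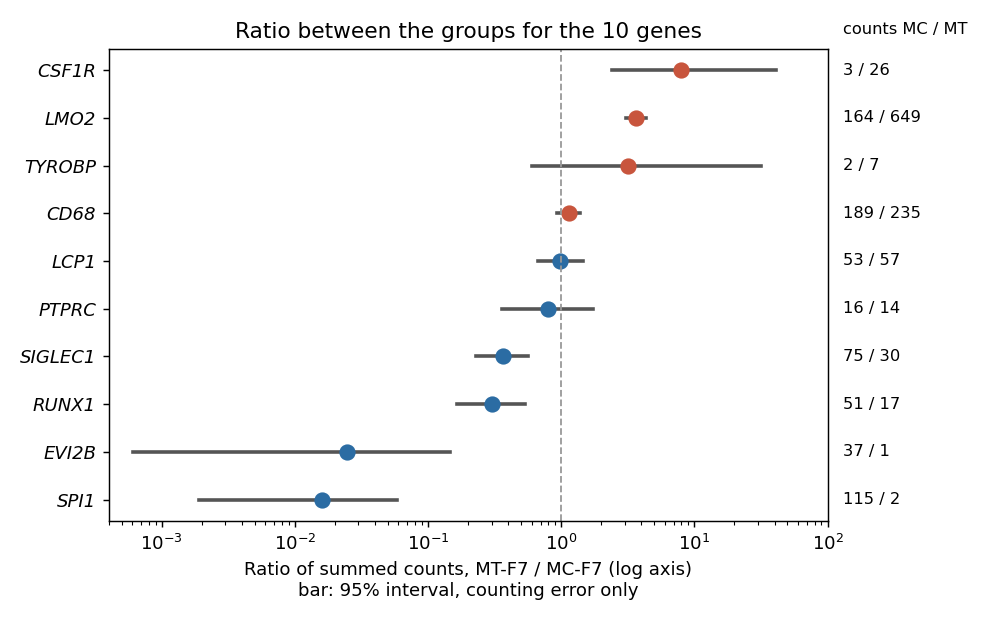
Points give the ratio of summed counts, MT-F7 over MC-F7, on a logarithmic axis, with red above 1 and blue below 1, and bars give the 95% counting interval. Summed counts stand at the right. SPI1 and EVI2B lie far to the left, LMO2 and CSF1R to the right of 1, and the bars of LCP1, CD68, PTPRC and TYROBP cross 1.

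Counted over the 10 genes, 2 were higher in MT-F7 in every library (LMO2 and CSF1R), 2 were lower in every library (SPI1 and EVI2B) and 6 overlapped. Over all 16223 genes with at least 1 count, 34.9% did not overlap between the groups, 17.2% higher and 17.7% lower in MT-F7. The filter on low counts was passed by 6 of the 10 genes, and SPI1 and EVI2B passed it only through their MC-F7 libraries, while SIGLEC1 reached its cutoff of 0.419 CPM in all 3 MC-F7 libraries and 1 MT-F7 library. By edgeR's quasi-likelihood test with Benjamini-Hochberg adjustment, 3 of the 10 passed an adjusted p of 0.05, with LMO2 higher and SPI1 and EVI2B lower. Of the 13001 genes tested, 23.2% passed, 11.9% higher and 11.3% lower. The count of 3 is a description for the same reason.

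Levels of different genes can be compared only per length, for which the deposited TPM values were rescaled to 1000000 per library. In MC-F7 the order was CD68 at 2.78 ± 0.889 TPM, LMO2 at 1.74 ± 0.0901 and SPI1 at 0.582 ± 0.180 (SD, n = 3), followed by RUNX1, EVI2B, SIGLEC1, LCP1, PTPRC, TYROBP and CSF1R. Neighbours in that order lay apart by more than their SDs only between CD68 and LMO2, LMO2 and SPI1, and EVI2B and SIGLEC1. In MT-F7, LMO2 was first at 6.64 ± 0.795 TPM and CD68 second at 3.34 ± 0.841, both apart from the rest. LCP1 came next at 0.214 TPM, and SPI1 was last at 0.00983 ± 0.0170 TPM, with no neighbours below CD68 apart by more than their SDs. These are low levels. Over all 6 libraries SPI1 was above 37.5% of the 21182 genes in the TPM table, CD68 above 57.0% and LMO2 above 60.5%.

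**Figure D3:**
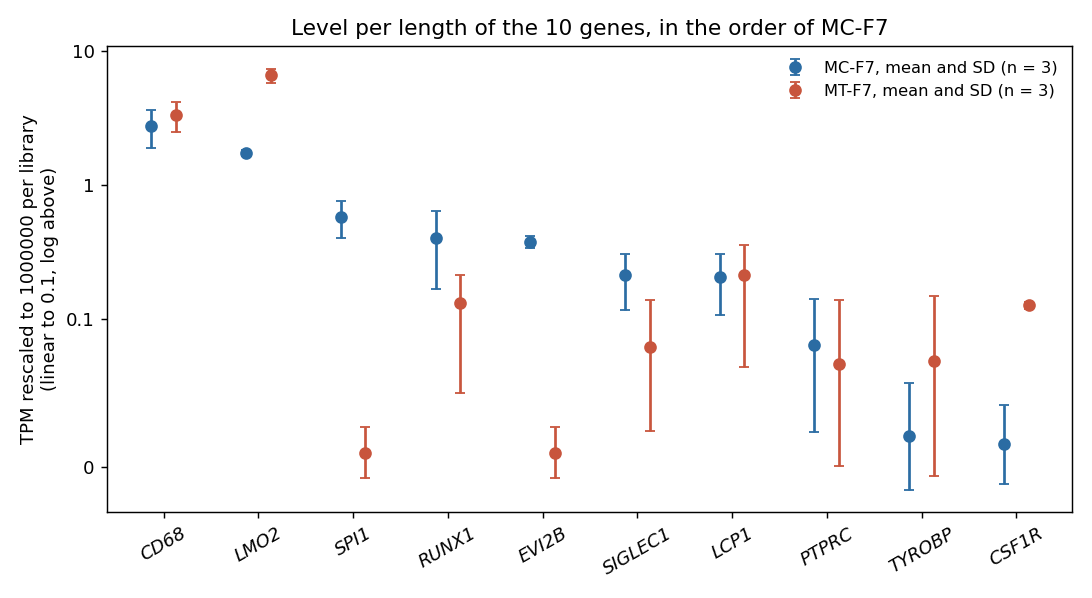
Rescaled TPM of the 10 genes (vertical axis linear up to 0.1 and logarithmic above), mean with SD bars over 3 libraries, MC-F7 in blue and MT-F7 in red, in the order of MC-F7 from left to right. CD68 and LMO2 lie above 1 TPM in both groups and all other genes lie below it.

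The partners and relatives of these genes were examined gene by gene, with 26 such genes in the count table and 20 tested, of which 6 rose and 1 fell (35.0%, against 23.2% of all genes tested). The median log2 fold change was 0.40 over the 20 genes and -0.0026 over all genes tested. These partners and relatives were chosen with earlier results of the data known, so share and median are a description. In the LIM-only family, LMO1, the closest relative of LMO2, had 646, 643 and 464 counts in MC-F7 against 2137, 2576 and 2000 in MT-F7. Its level rose from 25.6 ± 3.55 to 89.8 ± 8.35 CPM (SD, n = 3), a log2 fold change of 1.81 (SE 0.16, adjusted p = 7.58e-06). LMO4 rose from 76.9 ± 5.37 to 123 ± 15.2 CPM (log2 fold change 0.68, SE 0.15, adjusted p = 0.00614). Both were higher in 3 of 3 MT-F7 libraries than in any MC-F7 library.

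LMO3 did not pass, with a log2 fold change of 0.40 (SE 0.18, adjusted p = 0.135). Among the proteins that LMO2 joins in blood cells, LDB1, the LIM-domain binding scaffold, had a log2 fold change of 0.41 (adjusted p = 0.113), and LDB2 had -0.54 (adjusted p = 0.319). The E proteins TCF3 and TCF12, which pair with TAL1, had 0.16 (adjusted p = 0.456) and 0.64 (adjusted p = 0.0789). TAL1 itself was at 1.03 ± 0.418 CPM in MC-F7 and 0.833 ± 0.398 CPM in MT-F7, and did not pass (adjusted p = 0.688). TCF12 passed without MC-F7 replicate 3 (log2 fold change 0.79), while LDB2 and TCF3 passed in none of the fits without a library.

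None of the 5 tested RUNX relatives and cofactors passed, against 23.2% of all genes tested. With 5 genes that count is not read as a result. They were RUNX2, the bone factor of the family, CBFB, the subunit all RUNX proteins share, and the corepressors RUNX1T1, CBFA2T2 and CBFA2T3. Their log2 fold changes lay between -0.40 and 0.10, and 0 of the 5 had an unadjusted p under 0.05 in edgeR or in DESeq2. RUNX3 was not tested, with 9, 7 and 13 counts in MC-F7 against 1, 0 and 7 in MT-F7.

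Both ligands of CSF1R rose. CSF1 was at 1.13 ± 0.150 CPM in MC-F7 and 2.20 ± 0.0328 CPM in MT-F7 (log2 fold change 0.96, SE 0.32, adjusted p = 0.0475), and IL34 was at 8.52 ± 1.75 and 15.0 ± 0.829 CPM (0.81, SE 0.19, adjusted p = 0.0083). CSF1 lost its call in each of the 6 fits without a library, and IL34 lost it without MC-F7 replicate 2. TREM1 and TREM2, receptors that signal through TYROBP, had no count in any library, and its other receptors were not looked up. HCST, the sister adaptor DAP10, had at most 2 counts in any library, and SYK, the kinase downstream of these adaptors, at most 6.

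IRF4, which binds DNA together with PU.1 in lymphocytes, was near the detection limit with 2 to 7 counts per library. CEBPB, a partner of PU.1 in myeloid cells, was in the TPM table but not in the counts. Its rescaled TPM values were 19.0, 19.3 and 15.8 in MC-F7 against 6.46, 5.13 and 2.81 in MT-F7, and the groups did not overlap.

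EVI2A, the neighbour of EVI2B, had 7, 0 and 2 counts in MC-F7 against 12, 38 and 14 in MT-F7, a log2 fold change of 2.63 (SE 0.81, adjusted p = 0.0318) that lost its call in 3 of 6 fits without a library. It entered the test only through its MT-F7 libraries, since no MC-F7 library reached the cutoff. PLS3, the plastin of non-blood cells, rose with a log2 fold change of 0.65 (SE 0.21, adjusted p = 0.0433), and lost its call in 4 of these fits. PLS1 did not pass (0.60, SE 0.65, adjusted p = 0.548). Among the lysosomal relatives of CD68, LAMP2 fell from 221 ± 55.0 to 129 ± 22.5 CPM (log2 fold change -0.78, SE 0.20, adjusted p = 0.0144), and lost its call without MC-F7 replicate 1 or 2. LAMP1 did not pass, with 0.49 (SE 0.19, adjusted p = 0.0855).

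Whether the differences reached a wider set of blood cell genes was examined with 5 lists of markers, for blood transcription factors, all leukocytes, monocytes and macrophages, lymphocytes, and the erythroid and megakaryocyte lines. The lists held 102 genes of the count table, none of them among the 10. They were chosen with earlier results of these data known, so their share of calls is a description. Of the 102 genes, 17 had no count in any library and 32 had at most 3 counts in every library. The filter was passed by 41, of which 40 had libraries above the cutoff in both groups and 1 (CD3G) in MC-F7 only. Of the 41, 9 rose, 9 fell and 23 did not pass (43.9% called, against 23.2% of all genes tested). The median log2 fold change of the 41 was -0.31. Of the 18 calls, 8 passed in all 6 fits without a library, namely 2 of those that rose (PTPN6 and CORO1A) and 6 of those that fell (LCK, VAV1, FERMT3, SASH3, IRF8 and BCL11A).

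The genes without any count included several that define blood cells: CD53 and CD52 of all leukocytes, LCP2 of T cells and myeloid cells, MSR1, MPEG1, MARCO, VSIG4, C1QB and C1QC of macrophages, PAX5 and MS4A1 of B cells, IKZF1 of lymphoid precursors, and HBB of red cells. For each of these, 0 counts in a library allow up to 0.116 to 0.140 CPM. CD14 had 3, 5 and 0 counts in MC-F7 and none in MT-F7, and CD163 had at most 4 counts in any library. Most markers that define macrophages and red cells were thus at or near 0 in both groups, also in MC-F7, where SPI1 was counted. C1QA, a complement gene of macrophages, was among the exceptions at 0.604 ± 0.340 CPM in MC-F7 and 0.388 ± 0.0336 CPM in MT-F7, as was EPOR, the erythropoietin receptor, at 7.53 ± 0.783 and 4.81 ± 1.47 CPM, and neither passed. AHSP, a chaperone of alpha globin, had 3 to 14 counts in each library and did not pass (adjusted p = 0.318). ITGAX, an integrin of dendritic cells, was in the TPM table only, at 0.726 to 2.38 rescaled TPM. Lymphocyte markers were mixed, since the T cell genes CD3E, CD3D and CD2 had at most 8 counts in any library, while the B cell receptor chain CD79A was at 6.56 ± 1.04 CPM in MC-F7 and 3.54 ± 0.939 CPM in MT-F7. These markers were named after their values were seen.

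Among 31 pan-leukocyte genes, 16 were tested, 5 rose and 3 fell (50% called, against 23.2% of all genes tested). VAV1, a signaling exchange factor of blood cells, had 413, 368 and 334 counts in MC-F7 against 43, 40 and 32 in MT-F7. It fell from 16.4 ± 1.64 to 1.54 ± 0.177 CPM (SD, n = 3), a log2 fold change of -3.41 (SE 0.21, adjusted p = 7.59e-07). SASH3, an adaptor of lymphocytes, fell from 8.83 ± 1.91 to 2.55 ± 0.877 CPM (log2 fold change -1.79, SE 0.28, adjusted p = 0.000565). FERMT3, the integrin activator kindlin-3, fell from 1.96 ± 0.326 to 0.493 ± 0.266 CPM (-1.98, SE 0.44, adjusted p = 0.00596). For all 3 the groups did not overlap. FERMT3 reached the filter's cutoff in 3 MC-F7 libraries and only 1 MT-F7 library.

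In the same list, PTPN6, the phosphatase SHP-1, had 385, 367 and 334 counts in MC-F7 against 767, 1053 and 916 in MT-F7. It rose from 16.0 ± 0.953 to 36.7 ± 5.40 CPM (log2 fold change 1.20, SE 0.17, adjusted p = 0.000232). CORO1A, an actin-binding coronin, rose from 12.0 ± 0.803 to 21.4 ± 2.24 CPM (0.83, SE 0.17, adjusted p = 0.00324). LAPTM5, a lysosomal protein (1.00, adjusted p = 0.015), INPP5D, the phosphatase SHIP1 (0.91, adjusted p = 0.032), and the tetraspanin CD37 (0.58, adjusted p = 0.0316) also rose. Of the 6 fits without a library, LAPTM5 passed in 5, INPP5D in 3 and CD37 in 1. The summed level of the list ranged from 117 to 148 CPM in MC-F7 and from 140 to 164 CPM in MT-F7, so the groups overlapped.

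**Figure D4:**
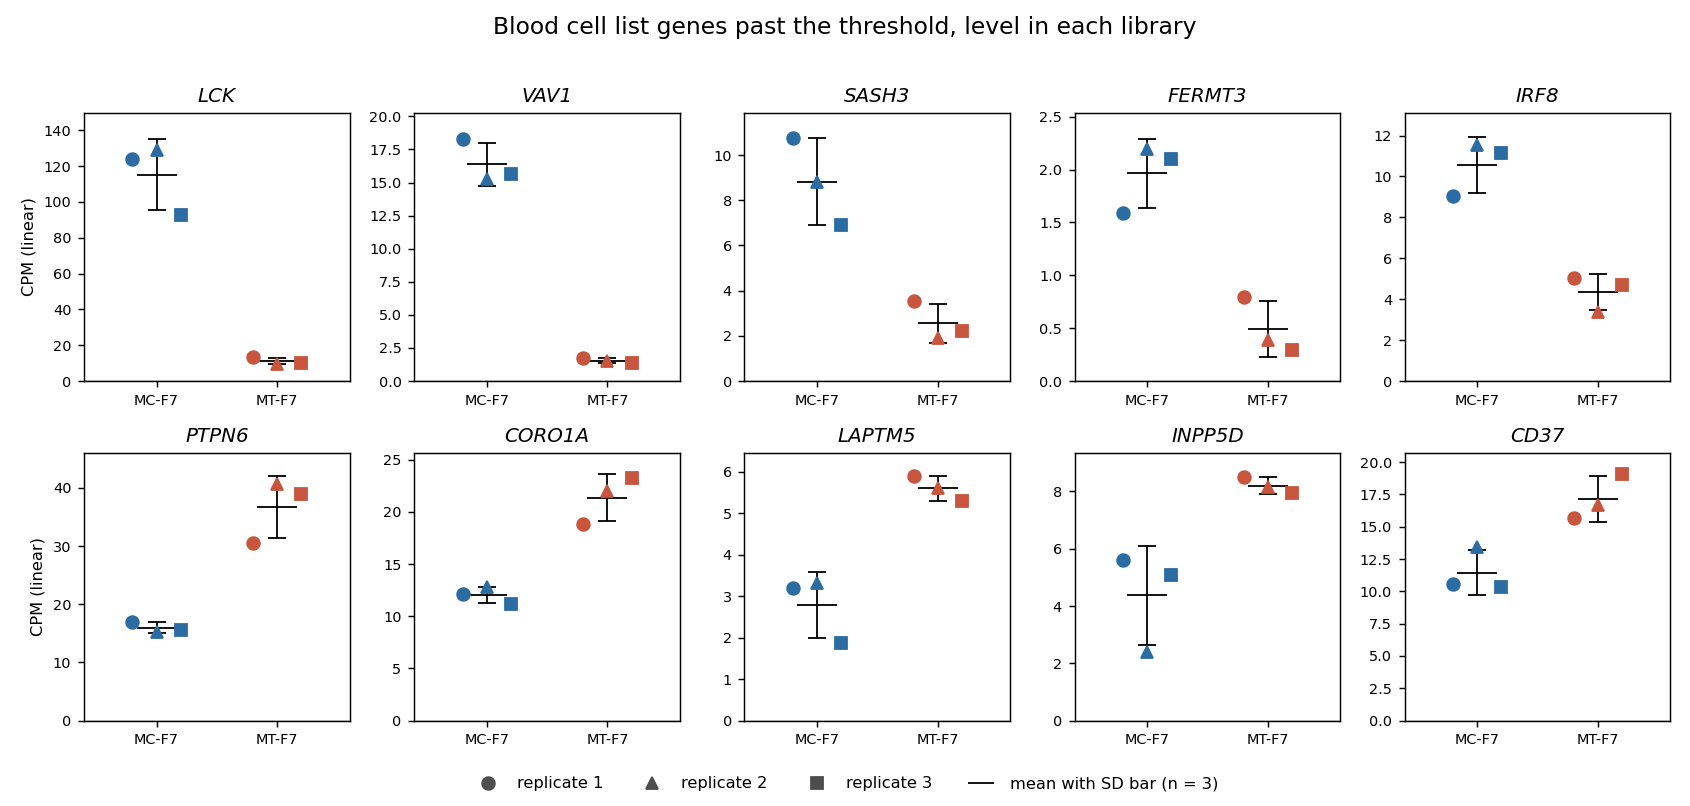
Each panel plots the CPM of 1 gene in each library on a linear axis, with blue for MC-F7, red for MT-F7, symbols for the replicates and black bars for the mean and SD (n = 3). Shown are the 8 pan-leukocyte genes that passed the test, with LCK and IRF8. LCK, VAV1, SASH3, FERMT3 and IRF8 lie lower in MT-F7, and PTPN6, CORO1A, LAPTM5, INPP5D and CD37 lie higher, with no overlap between the groups.

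Among 20 lymphocyte genes, 8 were tested, 1 rose and 3 fell (50% called, against 23.2% of all genes tested). LCK, the Src-family kinase of the T cell receptor, had 2800, 3115 and 1983 counts in MC-F7 against 330, 252 and 242 in MT-F7. It fell from 115 ± 19.7 to 11.1 ± 1.83 CPM, a log2 fold change of -3.38 (SE 0.19, adjusted p = 6.20e-07). The T cell receptor chain CD3G (-2.22, adjusted p = 0.0294) and the B cell receptor chain CD79A (-0.89, adjusted p = 0.0233) also fell, and ZAP70, the T cell kinase, rose (1.05, adjusted p = 0.0479). Of the 6 fits without a library, ZAP70 passed in 0, CD79A in 2 and CD3G in 3, and CD3G entered the test only through its MC-F7 libraries. LCK made up most of the list in MC-F7, and the summed level of the list was 115 to 149 CPM in MC-F7 and 24.9 to 33.0 CPM in MT-F7. BLK, a B cell kinase of the LCK family, was not tested, with 23, 20 and 8 counts in MC-F7 against 0, 0 and 2 in MT-F7, and was named after its values were seen.

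Of 21 monocyte and macrophage genes, 8 had no count, 3 were tested and 2 rose, against 23.2% of all genes tested called in either direction. These were CTSS, a lysosomal protease of antigen-presenting cells (1.17, SE 0.35, adjusted p = 0.0298), and FCER1G, a signaling chain of Fc receptors (0.94, SE 0.30, adjusted p = 0.0352), for which the groups overlapped. CTSS passed in 3 and FCER1G in 2 of the 6 fits without a library. The summed level of the list was 4.38 to 8.23 CPM in MC-F7 and 8.52 to 13.1 CPM in MT-F7. FCER1G (mean 3.4 CPM in MC-F7 and 6.5 in MT-F7) and CTSS (1.4 and 3.1 CPM) made up most of it. The sum is thus not read as a rise of the list. Below the filter, the Fc receptor FCGR1A had 2, 6 and 9 counts in MC-F7 and none in MT-F7, while TLR2, a receptor for bacterial lipoproteins, had 2, 2 and 1 counts in MC-F7 against 9, 13 and 10 in MT-F7. Both were named after their values were seen, and they differ in opposite directions.

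Of 20 blood transcription factors, 11 were tested, 1 rose and 3 fell (36.4% called, against 23.2% of all genes tested). IRF8, which works with PU.1 in monocytes and dendritic cells, fell from 10.6 ± 1.36 to 4.35 ± 0.875 CPM (log2 fold change -1.28, SE 0.22, adjusted p = 0.00112). BCL11A, a repressor of fetal globin and a B cell factor, fell with -1.58 (SE 0.32, adjusted p = 0.00329), and GATA2, a factor of blood stem cells, fell with -1.70 (SE 0.51, adjusted p = 0.0292). ETV6, an ETS repressor, rose with 0.53 (SE 0.15, adjusted p = 0.0205). GATA2 and ETV6 lost their calls in 4 of 6 fits without a library, and GATA2 reached the filter's cutoff in only 1 MT-F7 library. Of 10 erythroid and megakaryocyte genes, 3 were tested and none passed in edgeR or DESeq2, with 1 (EPOR) at an unadjusted p under 0.05 in each. In edgeR 23.2% of all genes tested passed, and with 3 genes none passing is not read as a result. ITGA2B, the platelet integrin chain with the highest count, was at 11.4 ± 3.34 CPM in MC-F7 and 9.02 ± 4.49 CPM in MT-F7 (adjusted p = 0.486).

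**Figure D5:**
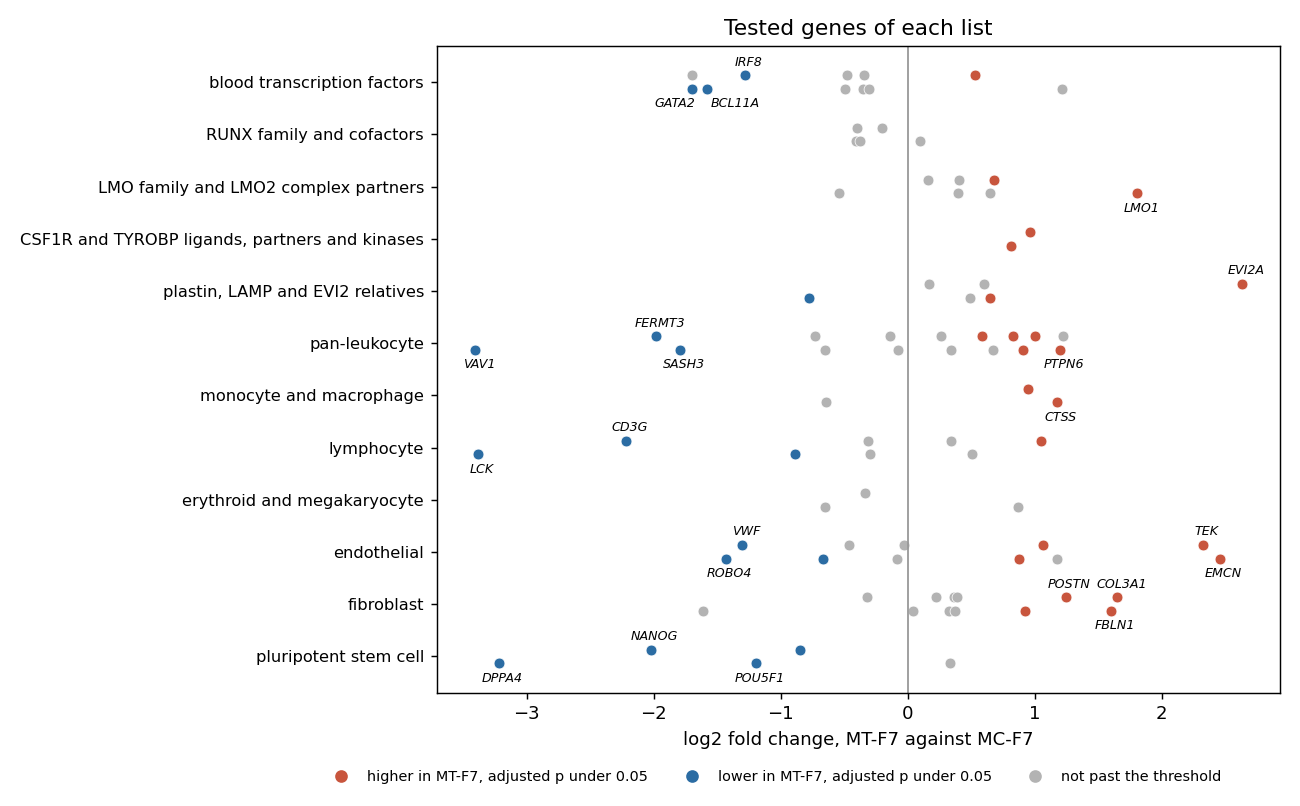
Each point is a tested gene, placed by its log2 fold change of MT-F7 against MC-F7, in the row of its list. Red points rose, blue points fell and grey points did not pass an adjusted p of 0.05, and called genes with changes of at least 1.1 in size are named. Points of the blood cell lists lie on both sides of 0, from -3.41 for VAV1 to 1.22.

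Genes of other cell types also differed, in lists likewise chosen with earlier results of these data known. Of 28 tested genes of endothelial, fibroblast and pluripotency lists, 15 passed (53.6%, against 23.2% of all genes tested and 43.9% in the blood cell lists). Blood cells arise from endothelium, and of 11 tested endothelial genes 4 rose (TEK, EMCN, KDR and ETV2) and 3 fell (ROBO4, VWF and EGFL7), among them TEK, the angiopoietin receptor, from 2.53 ± 0.356 to 12.7 ± 0.716 CPM (adjusted p = 7.45e-06). ROBO4, VWF and EGFL7 each lost their call in at least 3 of the 6 fits without a library, and EMCN entered the test only through its MT-F7 libraries. PECAM1 and CDH5, which define endothelium, were under the filter's cutoff in every library. Of 12 tested fibroblast genes, 4 rose (COL3A1, FBLN1, POSTN and PDGFRB) and none fell in edgeR or DESeq2. PRRX1, which entered only through its MC-F7 libraries, was lower at an unadjusted p under 0.05 in each (adjusted p = 0.0537 in edgeR). The summed level of the fibroblast list was 307 to 414 CPM in MC-F7 and 625 to 745 CPM in MT-F7. Of 5 tested pluripotency genes, 4 fell (DPPA4, which entered only through its MC-F7 libraries, NANOG, POU5F1 and LIN28A), and the summed level was 935 to 1561 CPM in MC-F7 and 577 to 626 CPM in MT-F7. PDGFRB and LIN28A lost their calls in 3 of the 6 fits without a library, and POSTN in 1. The summed level of the pluripotency list was higher in MC-F7, and that of the fibroblast list in MT-F7. A link of either list to SPI1 or LMO2 was not tested and cannot be read from 2 groups. Single genes made up most of these sums, POU5F1 for pluripotency, and FBLN1 (108 to 327 CPM) and COL1A1 (205 to 268 CPM, not passing) for fibroblasts. The remaining tested pluripotency gene, SALL4, did not pass (log2 fold change 0.33). The part of these cell types, and of mouse feeder reads aligned to the bovine genome, in the values of the 10 genes was not tested, and feeder carry-over and feeder treatment cannot be told apart in this design.

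Among all tested genes, the 5 whose level over the 6 libraries was most like that of SPI1 were STC2, GDF3, HOXC9, ZNF296 and SLC16A3, by the root mean square difference of centred log2 CPM, from 0.18 for STC2 to 0.40 for SLC16A3. This is a description only, since the log2 levels of SPI1 in MT-F7 are set largely by the count of 2 added before taking logs, which shrinks its difference between the groups. STC2, a secreted glycoprotein, had 1900, 2320 and 1369 counts in MC-F7 against 124, 105 and 177 in MT-F7. GDF3, a TGF-beta family ligand of pluripotent cells, had 585, 512 and 451 counts in MC-F7 against 26, 35 and 43 in MT-F7. HOXC9, a homeobox factor, had 42, 37 and 22 counts in MC-F7 and none in MT-F7, which makes it at least 12.2-fold lower in MT-F7 against a floor of 3 counts per library. Among LMO2, SIGLEC1, EVI2B, LCP1 and CD68, EVI2B was nearest to SPI1, at a difference of 0.86 and rank 59 among all tested genes. LMO2 was the farthest of them, at 2.95 and rank 12721. Ranks of genes in the marker lists, such as LCK and VAV1, are not given here, and some may lie nearer to SPI1 than EVI2B.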

How the data were processed

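RNA-seq of 3 MC-F7 and 3 MT-F7 libraries was used. The authors aligned paired reads to the Ensembl bovine genome with HISAT2 2.0.5 and counted them on genes with featureCounts 1.5.0-p3, and raw counts for each Entrez gene were deposited by the authors. The build and the strand setting are not given in the sources used here. The authors also deposited TPM values, whose columns summed to 154763 to 164394 with each Ensembl identifier taken once. These were rescaled to 1000000 per library for comparisons of levels between genes. The count table has no symbols, and 19074 of its 19163 Entrez identifiers were given 1 by the RefSeq gene table.

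Genes were filtered with filterByExpr (minimum count 10, minimum total count 15), scaled by TMM and tested with the quasi-likelihood test of edgeR 4.0.16 in R 4.3.3, with Benjamini-Hochberg adjustment over 13001 genes and a threshold of 0.05. CPM used TMM library sizes. Ratios of summed counts have 95% exact conditional binomial intervals. An exact permutation test of 3 against 3 libraries cannot go below p = 0.1 and was not run. On simulated counts of 13038 genes with 200 changed, the test recovered 175 and 5 of 180 calls were false. How far this holds for the sequenced libraries was not tested. Other scalings, filters, DESeq2 1.42.0, limma 3.58.1, a replicate block and leaving out each library were tried.

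The 10 genes and 13 gene lists (171 genes, 159 in the count table) were chosen with earlier results of these data known. Genes named were the 10, every partner or relative, per list up to 5 called genes with the largest changes in each direction (or the gene with the highest count where none passed), and the 5 genes nearest to SPI1. Overlapping genes come from RefSeq annotation of bovine assembly ARS-UCD2.0, used for names and neighbours only. Some genes of the lists are not reported here.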

Additional observations from a re-analysis of the deposited data

How the results depend on the processing

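Of the 10 genes, 3 passed the threshold in the reported fit, against 23.2% of all genes tested. Since these data chose the 10, their counts under other settings are a description too. With at least 10 counts required in every library 1 passed, since SPI1 and EVI2B then left the table, and with limma on log2(TPM + 1) 1 passed. Over all genes, 2712 of 11970 passed in the former and 2206 of 12693 in the latter. Leaving out a library gave 3 to 4 of the 10 genes. Limma on log2(TPM + 1) also lowered the calls of the blood cell lists from 18 to 11, of the partners and relatives from 7 to 4 and of the endothelial, fibroblast and pluripotency lists from 15 to 7, where a pseudocount of 1 is large beside these levels. Leaving out a library gave 10 to 16 calls in the blood cell lists (10 without MT-F7 replicate 2), 2 to 6 among partners and relatives (2 without MC-F7 replicate 2, 4 without MT-F7 replicate 2), 11 to 14 in the other lists, and 1914 to 3093 calls over all genes tested in each fit, against 3016 with all libraries (1914 without MC-F7 replicate 2). In these fits the log2 fold change changed sign for CBFA2T2 (-0.57 to 0.26), CBFA2T3 (-0.94 to 0.17), RUNX1T1 (-0.68 to 0.10) and NF1 (-0.50 to 0.61). For changes whose cause is not given, the cause was not tested.

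On the TPM scale as deposited, 67.3% of calls were higher in MT-F7 (pseudocount 1) and 67.1% (pseudocount 0.1), against 51.5% of calls on counts. The median of all genes moved to 0.05 and 0.11 log2, against -0.0026. For each of the 10 genes, deposited TPM over count was the same in every library with counts, so these values held no scaling for library depth. The limma fits used the deposited values without rescaling. Their column sums were 154763 to 161716 in MC-F7 and 163772 to 164394 in MT-F7, and how far this moved the median was not tested. Whether the replicate numbers pair the samples is not given in the sources used here, and the reported fit has no replicate block. Correlations of same-numbered libraries' deviations were 0.13, 0.04 and 0.42, all positive, and do not settle it. With the replicate block 4674 of 13001 genes passed, 4 of the 10 genes, 20 blood cell genes, 10 partners or relatives and 16 genes of the other lists. DESeq2 called 3390 genes. At these depths a gene with under about 10 counts per library can show only large differences, which limits RUNX1, CSF1R, TYROBP and PTPRC.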

Other observations

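Relatives of the kinases, adaptors, actin-binding proteins and interferon regulatory factors that rose or fell were looked up after the values of LCK, VAV1, CORO1A, FERMT3 and IRF8 had been seen, so their values are a description of these libraries. Among the Src-family kinases, LYN, which acts in B cells and myeloid cells, rose with a log2 fold change of 0.83 (adjusted p = 0.00719), and FYN, which is widely expressed, rose with 0.56 (adjusted p = 0.0146). SRC and YES1 did not pass. BTK, a kinase of B cell receptor signaling, fell with -2.15 (adjusted p = 0.0169). VAV2, the broadly expressed relative of VAV1, had 0.59 (adjusted p = 0.0642). The kindlins FERMT1 and FERMT2 and the coronins CORO1B and CORO1C did not pass.

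Among the interferon regulatory factors, IRF1, an activator of interferon target genes, fell from 13.1 to 2.65 CPM (log2 fold change -2.30, adjusted p = 5.78e-06). IRF7, which drives type I interferon production, fell from 19.2 to 7.32 CPM (-1.39, adjusted p = 0.000155). IRF2, IRF3 and IRF9 did not pass. All p-values are from edgeR's quasi-likelihood test, adjusted over all tested genes.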
